A study of Mus musculus with 3 samples.

Results

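Peaks of AGO2 HITS-CLIP were described in the spans of 8 mouse genes of Wnt signalling, Notch signalling and neural cell adhesion, namely Tcf7l1, Lef1, Lrp5, Fzd3, Dll1, Hes1, Ncam1 and Cdh2. A peak was counted for a gene if its midpoint lay between the first and last base of the gene in RefSeq (GRCm38.p6, the coordinates of mm10), on either strand. By this rule 22 of the 6911 peaks in 4 deposited peak lists lay in the 8 genes. HITS-CLIP crosslinks RNA to a protein in the cell, pulls the protein down and sequences the attached RNA fragments. The 3 libraries came from P19, a line of mouse embryonal carcinoma cells able to form neurons, and were pulled down with the anti-AGO2 antibody clone 2D4. They formed 1 group with no treatment and no control. The lists, 1 per peak caller (CIMS, Piranha, Pyicoclip and PIPE-CLIP), cover all libraries together. Neither the depth of a single library nor the variation among the 3 can therefore be given. The genes were chosen by the peaks they hold in these lists, so their peaks are described here without a test.

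AGO2 is the protein that carries microRNAs, and it is guided to messenger RNAs mainly by pairing of the microRNA seed, most often in the 3′ untranslated region. In the Wnt pathway, Frizzled receptors and LRP co-receptors hold back the destruction of β-catenin, which then binds TCF/LEF proteins on DNA. In the Notch pathway, a Delta-type ligand on one cell releases the intracellular part of Notch in its neighbour, which switches on repressors of the HES family. N-cadherin and NCAM hold neural cells together, and P19 cells are widely used to study how such genes come on as neurons form.

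Of the mature microRNAs shown first, miR-9 and miR-34a are known regulators of 2 of the genes. The first acts on Hes1 in mouse neural progenitors, and miR-34a is known from human cells to act on DLL1. In contrast, miR-34b is shown only because it shares the seed of miR-34a, and is not given here as a regulator of Dll1. All are RefSeq sequences of GRCm38.p6, with the seed (bases 2 to 8) in capitals.
mmu-miR-9-5p: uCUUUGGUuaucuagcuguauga
mmu-miR-34a-5p: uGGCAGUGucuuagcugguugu
mmu-miR-34b-5p: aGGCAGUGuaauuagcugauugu
The spans of Mir9-1, Mir9-2, Mir9-3 and Mir34a held 0 peaks. Mir34b, on chromosome 9, held 1 Piranha peak and 1 Pyicoclip peak, each with a score of 11, and the Pyicoclip peak at 51103608 to 51103634 covered all 23 bases of the 5p arm. Mir34c, on the same chromosome, also held 1 Piranha and 1 Pyicoclip peak, each with a score of 12. There the Piranha peak covered 5 bases of the 3p arm and the Pyicoclip peak no mature arm. The median score of both lists was 12. A share over all microRNA genes is not given here, so these counts do not single out Mir34b or Mir34c. The sequence under the peaks of the 8 genes was not read here, so pairing with these seeds was not examined.

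Transcription starts of Dll1 and Tcf7l1 are shown next because the distances of their peaks are counted from them and because they fix the strand of the gene. Each window runs from 250 bases before to 50 bases after a RefSeq start, 5′ to 3′ on the gene strand, with the transcribed 50 bases in capitals.
Dll1 outer start, chr17:15376883-15377182, minus strand: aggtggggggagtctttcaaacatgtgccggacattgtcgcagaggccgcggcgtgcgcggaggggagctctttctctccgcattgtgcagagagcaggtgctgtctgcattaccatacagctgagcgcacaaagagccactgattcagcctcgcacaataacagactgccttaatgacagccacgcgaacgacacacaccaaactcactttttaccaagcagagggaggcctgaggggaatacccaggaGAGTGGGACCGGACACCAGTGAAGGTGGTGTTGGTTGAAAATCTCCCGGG
Dll1 inner start, chr17:15375774-15376073, minus strand: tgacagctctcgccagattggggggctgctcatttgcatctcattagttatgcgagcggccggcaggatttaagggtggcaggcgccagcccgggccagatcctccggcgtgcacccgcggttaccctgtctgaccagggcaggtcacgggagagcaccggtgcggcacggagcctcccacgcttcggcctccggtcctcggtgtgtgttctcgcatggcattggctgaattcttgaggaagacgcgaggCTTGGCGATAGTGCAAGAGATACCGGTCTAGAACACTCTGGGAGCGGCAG
Tcf7l1 start, chr6:72788996-72789295, minus strand: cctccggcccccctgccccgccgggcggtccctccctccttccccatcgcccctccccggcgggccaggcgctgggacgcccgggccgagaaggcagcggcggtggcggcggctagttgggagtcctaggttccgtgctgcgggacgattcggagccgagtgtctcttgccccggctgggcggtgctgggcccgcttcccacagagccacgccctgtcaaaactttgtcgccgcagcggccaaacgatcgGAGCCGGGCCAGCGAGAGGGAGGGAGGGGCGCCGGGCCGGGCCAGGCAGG
None of these 3 windows, nor any of the 4 windows listed for Lef1, overlapped a peak of any list. As only 50 bases of each window lie downstream of its start, this says little about these genes. The promoter table gave the strand of 3 of the 8 genes (Tcf7l1 and Dll1 minus, Lef1 plus). For the other 5, the direction used below is general knowledge and comes from no table used here: Hes1 runs on the plus strand, and Lrp5, Fzd3, Ncam1 and Cdh2 on the minus strand.

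All 8 genes held a peak, which their choice fixed, against 9.77% of 21900 protein-coding genes in RefSeq. PIPE-CLIP held 14 of the 22 peaks, in 6 of the 8 genes against 7.12% of protein-coding genes, Pyicoclip held 5, in 4 of the 8 against 4.54%, and Piranha held 3, in 3 of the 8 against 2.89%. CIMS, which looks for crosslink-induced mutations, held 0, in 0 of the 8 against 0.279%. Among the 2140 protein-coding genes with a peak, the shares were 72.9% in PIPE-CLIP, 46.5% in Pyicoclip, 29.6% in Piranha and 2.85% in CIMS. As a share of the CIMS list, 0 of 169 peaks allows up to 1.78% by a limit of 3 counts, which covers counting error only.

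Joining peaks that overlapped by at least 1 nt in any list gave 17 sites. Of these, 12 rested on PIPE-CLIP alone, or 70.6% of the sites, against 55.5% of the 4617 sites of the whole series. That 55.5% also counts sites outside protein-coding genes. Of the 2614 sites with a strand in a single protein-coding gene of known strand, a nearer comparison, 1765 rested on PIPE-CLIP alone. The 12 were all 3 sites of Tcf7l1, both of Fzd3, all 3 of Dll1, both of Cdh2 and 2 of the 4 of Ncam1. The other 5 sites had peaks of 2 lists: Lef1, Lrp5 and 1 Ncam1 site were held by Piranha and Pyicoclip, and Hes1 and another Ncam1 site by Pyicoclip and PIPE-CLIP. Thus Tcf7l1, Fzd3, Dll1 and Cdh2 would have no peak without PIPE-CLIP, which makes 4 of the 8 genes that rest on this list alone, against 53.1% of the 2140 protein-coding genes with a peak and 5.19% of all protein-coding genes. The remaining 4 had a peak outside PIPE-CLIP, against 46.9% of genes with a peak and 4.58% of all. The same 4 had peaks in at least 2 lists, against 40.8% of genes with a peak and 3.99% of all. As the 8 were chosen for holding a peak, the shares among genes with a peak are the like ones, and the 8 lay near them. No further peak lay within 5000 nt outside any of the 8 spans.

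**Figure D1:**
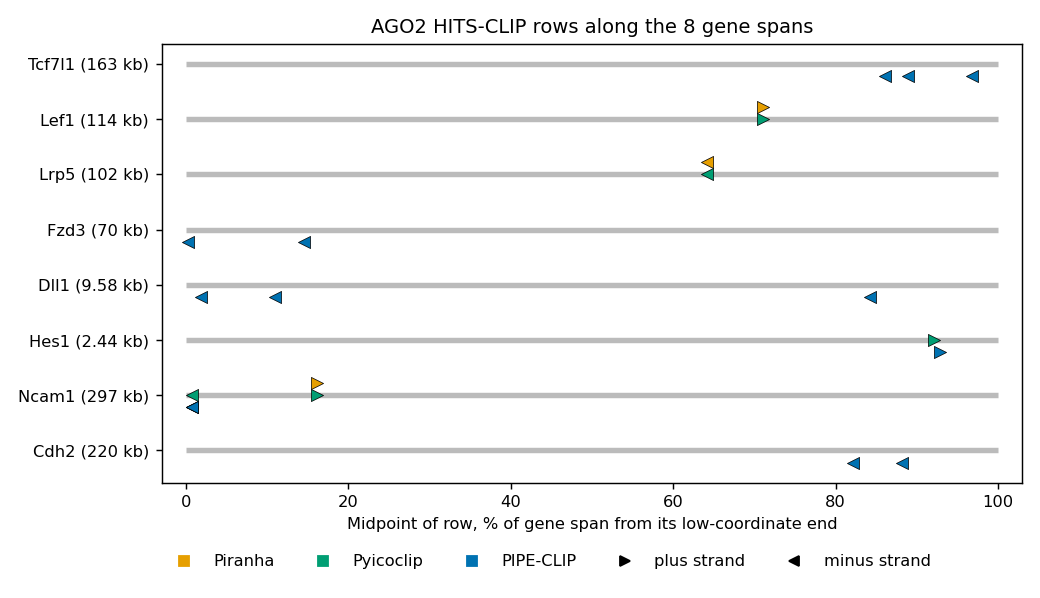
Position of each of the 22 peaks along its gene, as a percentage of the span counted from its low-coordinate end (horizontal axis), with genes in rows, lists in colours and strand as the direction of the triangle. The 3 Tcf7l1 peaks lie between 86.1% and 96.8% of the span, the Hes1 peaks lie at 92.1% and 92.9%, and the PIPE-CLIP peaks of Ncam1 lie at 0.682% to 0.786%.

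Of the Wnt receptors, Fzd3, a Frizzled receptor known for its part in axon guidance and planar cell polarity, held 2 PIPE-CLIP clusters on the minus strand. The first, at chromosome 14, 65192578 to 65192685, had a width of 108 nt and a score of 13, and its midpoint lay 190 nt from the low-coordinate end of the span. As Fzd3 runs on the minus strand, this is the 3′ end of the gene. The second lay at 65202531 to 65202614, 10.1 kb from the same end, with a score of 11. Scores are as the authors deposited them, without a unit, and none in the lists was below 10.

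Lrp5, a co-receptor that binds Wnt together with Frizzled, held 1 site on the minus strand of chromosome 19, well inside its span of 102 kb. The Piranha peak at 3650001 to 3650020 and the Pyicoclip peak at 3650011 to 3650033 both scored 11. The site lay 36.6 kb from the high-coordinate end of the span and 65.2 kb from the low-coordinate end, and no PIPE-CLIP cluster was found in the gene. Fzd3 and Lrp5 thus shared no list.

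Of the TCF/LEF proteins that carry β-catenin on DNA, Tcf7l1 acts mainly as a repressor and limits self-renewal in mouse embryonic stem cells. Its 3 PIPE-CLIP clusters were all on the strand of the gene and in the part nearest its start. They lay 5.15, 18.1 and 22.7 kb downstream of the start shown above, in a gene of 163 kb, with widths of 78, 51 and 56 nt and scores of 11, 11 and 12. All 3 scores were below the PIPE-CLIP median of 14. Exons were not used, so it cannot be said whether these clusters lie in exons or introns, here or in the other genes.

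Lef1, a TCF/LEF protein that mainly activates Wnt targets, held 1 site on its own plus strand. It joined a Piranha peak at chromosome 3, 131191341 to 131191380, with a score of 10, and a Pyicoclip peak at 131191351 to 131191381, with a score of 20. The Pyicoclip score was the highest of any peak in the 8 genes, at the 87.2 percentile of its list, whereas the Piranha score was the lowest that list holds. The site lay 81.1 kb from the first start of Lef1 and 33 kb from the end of the gene, at 71.1% of the span.

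Dll1, the Delta-like ligand of Notch that is expressed in nascent neurons, held 3 PIPE-CLIP clusters in a span of 9.58 kb, all on the strand of the gene. The cluster at chromosome 17, 15367451 to 15367611, was 161 nt wide and scored 19, the highest PIPE-CLIP score among the 8 genes, and its midpoint lay 177 nt from the 3′ end. The cluster at 15368372 to 15368438 scored 17 and lay 1.05 kb from that end. The third, at 15375359 to 15375471, also scored 17 and lay near the other end, 352 to 464 nt downstream of the inner start and 1461 to 1573 nt downstream of the outer start shown above. All 3 scores were above the list median of 14, and no other list held a peak in Dll1.

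Hes1, the repressor that Notch switches on and that keeps neural progenitors from differentiating, has the shortest span of the 8, at 2.44 kb. It held 1 site on the plus strand of chromosome 16, the direction of the gene. The Pyicoclip peak at 30067507 to 30067703, 197 nt wide, scored 13 against a list median of 12, and the PIPE-CLIP cluster at 30067572 to 30067674 inside it scored 18 against a list median of 14. The midpoints lay 191 and 173 nt from the end of the gene at 30067796. This was the only site of the 8 genes where both lists scored above their medians.

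Ncam1, the neural cell adhesion molecule of the immunoglobulin family, held the most peaks, 6 at 4 sites in a span of 297 kb. A group of 3 sites on the minus strand of chromosome 9 lay within 49504129 to 49504510, with midpoints 2.03 to 2.34 kb from the low-coordinate end, which is the 3′ end of the gene. At the first of these, a Pyicoclip peak at 49504129 to 49504185 and a PIPE-CLIP cluster at 49504129 to 49504181 began at the same base and both scored 10, the floor of the lists. The other 2, at 49504239 to 49504315 and 49504420 to 49504510, were PIPE-CLIP clusters alone with scores of 11 and 13. Gaps of 53 and 104 nt separated the 3, so they may be counted as 1 stretch, which a gap setting of 150 nt in the closing section does.

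The fourth Ncam1 site lay elsewhere and on the other strand. Its Pyicoclip peak at 49549880 to 49549905 scored 11 and its Piranha peak at 49549881 to 49549900 scored 10, both on the plus strand. It also lay in the span of the long non-coding RNA gene Gm11149, 49518288 to 49568025, for which the promoter table gives the plus strand. The site is therefore on the strand of Gm11149 and opposite to the known direction of Ncam1, and its gene of origin is uncertain.

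Cdh2 encodes N-cadherin, the calcium-dependent adhesion protein of neural tissue, with a span of 220 kb on chromosome 18. It held 2 PIPE-CLIP clusters on the minus strand. The first, at 16769804 to 16769859, scored 15, and the second, at 16783189 to 16783296, scored 12. They lay 39.4 and 26 kb from the high-coordinate end, which is the 5′ end of the gene, so both lay nearer the start than the end, as did the clusters of Tcf7l1.

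**Figure D2:**
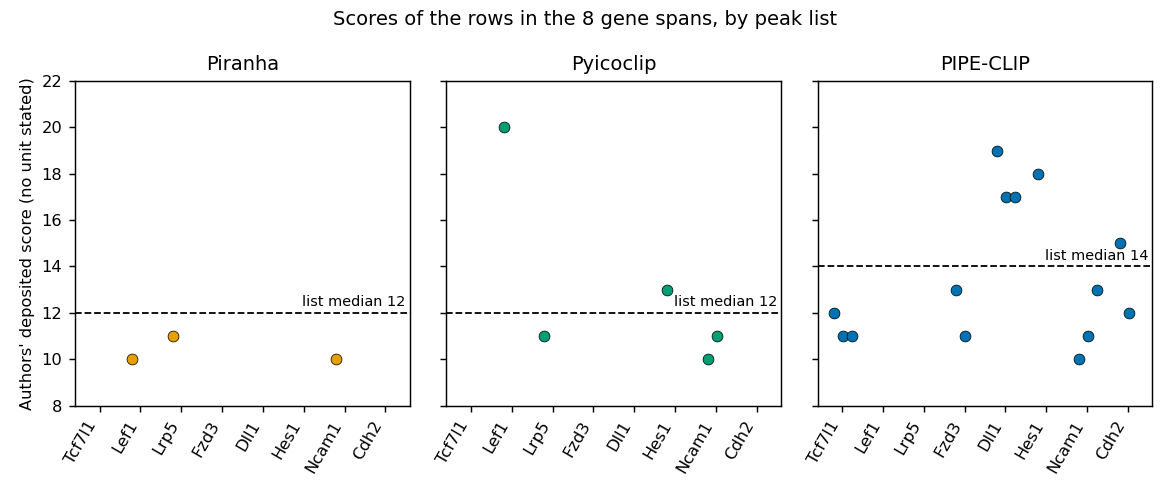
Authors' deposited score (vertical axis, no unit stated) of each peak by gene in Piranha, Pyicoclip and PIPE-CLIP, with the dashed line at the median of the whole list. All 3 Piranha peaks lie below the median of 12, 2 of the 5 Pyicoclip peaks (Lef1 and Hes1) lie above 12, and 5 of the 14 PIPE-CLIP clusters (3 in Dll1, 1 in Hes1 and 1 in Cdh2) lie above 14.

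Scores in the 8 genes were 10 to 11 in Piranha, where the list reaches 87, 10 to 20 in Pyicoclip, where it reaches 229, and 10 to 19 in PIPE-CLIP, where it reaches 1542. By rank within PIPE-CLIP, the Dll1 clusters stood at the 69.4, 69.4 and 77.1 percentiles and that of Hes1 at 73.3, while that of Ncam1 with a score of 10 stood at 7.05. Kept at scores of at least 15, 6 of the 22 peaks were left, namely the 3 of Dll1, the PIPE-CLIP cluster of Hes1, the first cluster of Cdh2 and the Pyicoclip peak of Lef1. Tcf7l1, Lrp5, Fzd3 and Ncam1 had none left. No level of RNA was measured with these peaks, so more AGO2 on an RNA and more of that RNA in the cells cannot be told apart. Likewise, fewer cells of a type and less RNA per cell cannot be told apart in such bulk libraries.

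Strand was not used to choose the genes. Of the 17 sites, 14 were on the minus strand, against 74.6% of the sites of the whole series, and so were all 12 of PIPE-CLIP alone, against 96.9% of such sites in the series. The 8 peaks of Tcf7l1, Lef1 and Dll1 were all on the strand of their gene. Over the whole series, in sites lying in a single protein-coding gene of known strand, those of PIPE-CLIP alone were on the gene strand in 99.4% of 1765 (95% Wilson interval 98.9 to 99.7). Sites of Pyicoclip and PIPE-CLIP, the kind found in Hes1 and at the 3′ end of Ncam1, were so in 96.2% of 211 (92.7 to 98.1). Sites of Piranha and Pyicoclip, the kind found in Lef1, Lrp5 and at the plus-strand site of Ncam1, were so in 51.5% of 371 (46.4 to 56.5). The intervals count each site as independent, although a gene can hold several.

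Position along the gene differed between the same kinds of site. The last 10% of the span held 63% of the sites of Pyicoclip and PIPE-CLIP (56.3 to 69.3), 39.3% of those of PIPE-CLIP alone (37.1 to 41.6) and 14.3% of those of Piranha and Pyicoclip (11.1 to 18.2). The first 10% held 2.37%, 9.07% and 14.3% of them in the same order. By known direction, of the 17 sites here the last 10% held the Hes1 site, 3 of Ncam1, 1 of Dll1 and 1 of Fzd3. The 3 of Ncam1, on the minus strand, may be counted as 1 stretch. The first 10% held 1 site of Tcf7l1, at 3.16% of the span from the gene start. Over all 2614 sites in a single protein-coding gene of known strand, 37.5% lay in the last 10% and 9.33% in the first.

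**Figure D3:**
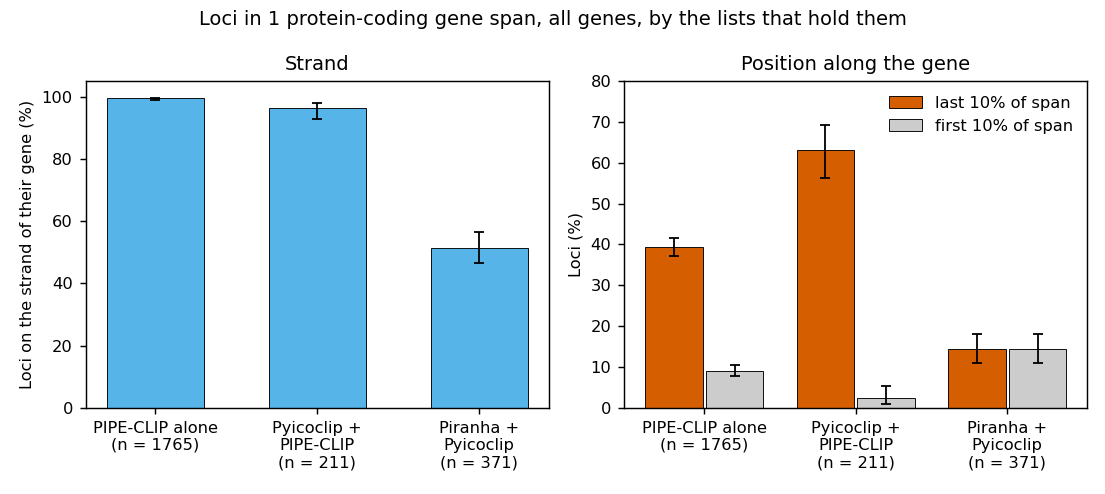
Sites of all protein-coding genes of known strand by the lists that hold them, with the share on the strand of the gene (left, percent) and the shares in the last and first 10% of the gene span (right, percent), error bars giving 95% Wilson intervals. Sites of Piranha and Pyicoclip, the kind held by Lef1 and Lrp5, are on the gene strand in 51.5% and are as frequent in the first as in the last 10%, at 14.3% each.

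PIPE-CLIP listed genes of the minus strand more often than genes of the plus strand. It held a peak in 12.2% of 8762 protein-coding genes of the minus strand (11.6 to 12.9) and in 1.98% of 8730 of the plus strand (1.71 to 2.3). Pyicoclip had 4.51% and 4.56%, and Piranha 2.77% and 2.96%, in the same order. Of the 2 plus-strand genes here, Hes1 had a PIPE-CLIP cluster and Lef1 had none, and 5 of the 6 minus-strand genes had one, Lrp5 being the exception. A gene of the plus strand without a PIPE-CLIP cluster, such as Lef1, is therefore not shown to lack AGO2 there, and the part of this imbalance in which of the 8 genes PIPE-CLIP lists was not tested.

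Longer genes held peaks more often. In the longest 10% of protein-coding genes, which hold Tcf7l1, Lef1, Ncam1 and Cdh2, 26.2% of 2190 genes held a peak. In the next 10%, which hold Lrp5 and Fzd3, the share was 18.1%, and in the length classes of Dll1 and Hes1, made in the same way, it was 5.25% and 2.97%. Per length, Hes1 and Dll1 had 41 and 31.3 sites per 100 kb, against 0.877 to 2.86 sites per 100 kb in the other 6. As every gene was chosen for holding a peak, a short span alone gives a high value. The 1 site of Hes1 in 2.44 kb already makes 41, so these values do not show denser AGO2 binding. The like comparison is again with genes that hold a peak, here those of the same length class. At least the 3 sites of Dll1 were held by 18 of 115 such genes, or 0.822% of the whole class. At least the 4 of Ncam1, including the site of uncertain origin, were held by 53 of 574, or 2.42% of the class. At least the 3 of Tcf7l1 were held by 89 of 574 (4.06%). For the 2 sites of Fzd3 and Cdh2 the counts were 155 of 396 (7.08%) and 204 of 574 (9.32%). Lef1, Lrp5 and Hes1 held 1 site each, the least a gene with a peak can hold.

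The other genes of these pathways were taken from lists drawn up from general knowledge. Of the Wnt pathway genes outside the 8, 14 of 82 held a peak. Of the Notch pathway genes outside the 8, 9 of 43 held a peak, and of the adhesion genes 17 of 55, against 9.77% of protein-coding genes in all. With the 8 genes counted in, 11 of 18 Wnt genes with a peak, 9 of 11 Notch genes and 7 of 19 adhesion genes rested on PIPE-CLIP alone, against 53.1% of all protein-coding genes with a peak. Median spans were 34.5, 22.1 and 197 kb in the Wnt, Notch and adhesion lists, against 17.1 kb over protein-coding genes, and the part of length in these counts was not tested.

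By role in the Wnt pathway and outside the 8, 1 of 19 ligand, 5 of 17 receptor and 0 of 15 inhibitor genes held a peak. So did 4 of 19 cytoplasmic transducer and 4 of 12 nuclear effector genes, against 9.77% of all protein-coding genes. With the 8 genes counted in, receptors had 7 of 19 and nuclear effectors 6 of 14. Median spans of the lists were 22.9, 70, 9.65, 36.1 and 54 kb in the same order, and the part of length was not tested. Znrf3, the ubiquitin ligase that removes Frizzled from the cell surface, had 8 PIPE-CLIP clusters, the most of any listed gene, 6 of them within 5.9 kb of the low-coordinate end of its span, and no peak of another list. Fzd2 held a CIMS peak, at chromosome 11, 102606608 to 102606648, with a score of 10, which overlapped a Piranha and a Pyicoclip peak, and it was the only gene of the Wnt, Notch and adhesion lists in CIMS. Bcl9, a co-activator of β-catenin, had 6 peaks, of which 5 were PIPE-CLIP clusters. Lrp6, the other LRP co-receptor, Fzd5, Ror2 and Tcf7 had 2, 2, 2 and 1 PIPE-CLIP clusters and no other peak, and Tle4 and Chd8 had 1 each. Of the transducers, Csnk1a1 and Tnks2 had a site of Pyicoclip and PIPE-CLIP within 1 kb of the high-coordinate end of their spans, while Csnk1d and Tnks were in PIPE-CLIP alone. The ligand gene was Wnt7a, whose Piranha and Pyicoclip site was on the strand opposite to the gene.

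In the Notch pathway, Notch2, a receptor, held peaks of Piranha, Pyicoclip and PIPE-CLIP at 1 site between 98148137 and 98148219 on chromosome 3, 2.2 kb from the 3′ end and on the strand of the gene. Its scores there were 13 in Piranha, 15 in Pyicoclip and 10 in PIPE-CLIP. Notch3 had 1 PIPE-CLIP cluster. Dll1 was the only ligand gene of 7 with a peak, and Hes1 the only gene of the effector list with a peak outside PIPE-CLIP, next to Spen with 2 and Maml1 and Maml3 with 1 PIPE-CLIP cluster each. The processing genes Ncstn, Poglut1, Mib2 and Numb had 1 PIPE-CLIP cluster each.

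In the adhesion lists, outside the 8, 6 of 20 immunoglobulin-type, 5 of 21 cadherin and catenin and 6 of 14 synaptic adhesion genes held a peak. The share was 9.77% over all protein-coding genes and 26.2% in the longest 10% of them. With Ncam1 and Cdh2 counted in, the first 2 lists had 7 of 21 and 6 of 22. Median spans of the lists were 297, 158 and 131 kb in the same order, and the part of length was not tested. Epha4, an ephrin receptor of growing axons, had 4 PIPE-CLIP clusters and 3 Pyicoclip peaks on the strand of the gene, with PIPE-CLIP scores of 12 to 36, above the scores of Ncam1 and Cdh2 at 3 of its 4 sites. Its ligand gene Efnb2 had 6 PIPE-CLIP clusters, and Nlgn2 and Ephb2 had 1 each. Ncam2, Nfasc, Cntn3, Cadm1, Cdh4, Cdh20, Ctnna2 and Ctnna3 each held a site of Piranha and Pyicoclip and no PIPE-CLIP cluster. With Wnt7a these made 10 such sites in 9 genes. For 8 of the 10 the strand of the gene was in the promoter table, and 4 of the 8 were on the gene strand (Ctnna2 with 2, Ctnna3 and Nfasc) and 4 on the opposite strand (Ncam2, Cdh20, Cntn3 and Wnt7a). Jup, Cadm3, Cntn4 and Nrxn3 had 1 peak each.

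**Figure D4:**
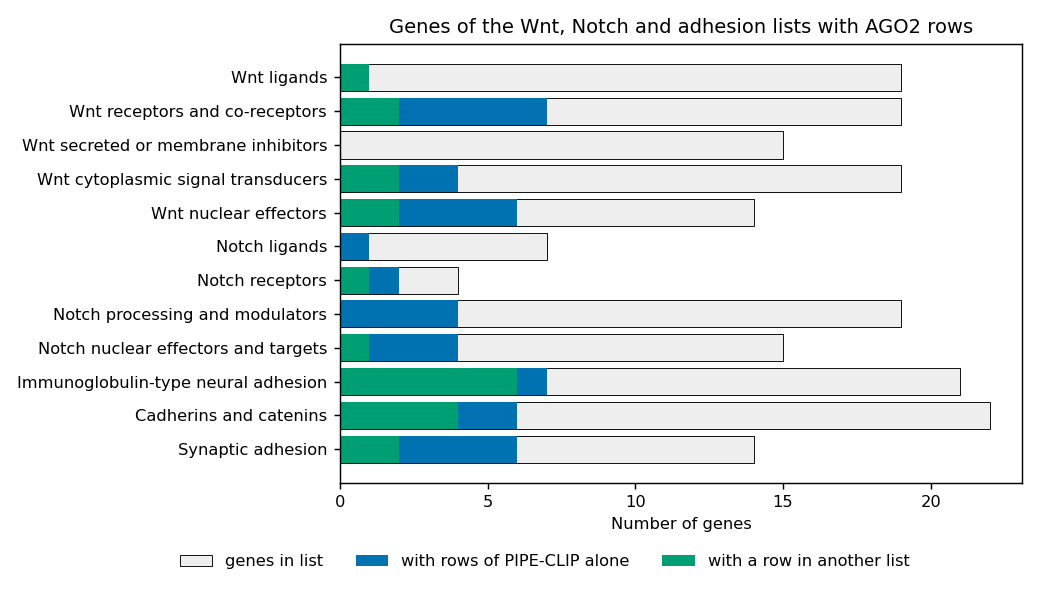
Number of genes in each Wnt, Notch and adhesion list, the 8 genes included (horizontal axis, genes; pale bars give the list size), with those held by PIPE-CLIP alone in blue and those with a peak in another list in green. Genes with a peak in another list make up 6 of the 7 immunoglobulin-type genes with a peak, whereas all 4 Notch processing genes with a peak rest on PIPE-CLIP alone.

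The genes most like the 8 were sought among all protein-coding genes by the number of peaks in each of the 4 lists, and then by span length. The same numbers as Tcf7l1 and Dll1 were held by 65 other genes each, the nearest in length being Ankrd11 and Mef2a for Tcf7l1, and Tob2 and Calm3 for Dll1. The pattern of Lef1 and Lrp5, 1 peak each in Piranha and Pyicoclip, was shared with 393 others, the nearest being Dapk2 and Nars2 for Lef1, and Cep83 and Kif4 for Lrp5. That of Fzd3 and Cdh2 was shared with 207 others, with Mideas and Spen nearest Fzd3, and App and Rapgef2 nearest Cdh2. For Hes1 there were 82, with Mdk and Rplp2 nearest, and for Ncam1 1, Pank3, followed by Ext1, which differed by 1 peak.

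Marker genes were counted by peaks as a check of the label, although a peak is not a level of RNA. Of 14 markers of pluripotent embryonal carcinoma cells, 3 held a peak (Lin28a with 12, Lin28b with 2 and Pou5f1 with 1), against 1 of 15 markers of neural progenitors and neurons (Map2) and 1 of 14 of endoderm and mesoderm (Actn2). Over all protein-coding genes the share was 9.77%, and with counts this small the 3 lists are not shown to differ from it or from each other. Sox2, Nanog, Nes, Pax6 and Tubb3 held none.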

How the data were processed

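The labels' protocols describe small RNA libraries from AGO2-bound RNA, sequenced on an Ion Proton instrument. The submitters' processing notes name cutadapt, Novoalign and mm10. Settings of the peak callers and how the 3 libraries were combined are not given there. The authors deposited 4 peak lists with a score per peak, of no stated unit and at least 10 in value, and nothing below that was analysed here.

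Peaks were assigned by midpoint to RefSeq gene spans (GRCm38.p6), and sites are peaks of any list joined by at least 1 nt, strand ignored. Gene strands came from a RefSeq promoter table with 17492 of 21900 protein-coding genes. Sites in more than 1 gene or without a strand were left out of strand shares. Score percentiles are mid-ranks.

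The 8 genes, the gene lists and the rules were chosen with earlier results of these data known. Named were the 8 genes, listed genes in at least 2 peak lists, the first 4 of each list and the 2 genes most alike. Further listed genes, the microRNAs and the comparisons by gene strand were chosen after their values were seen, and 1 gene that meets these rules is not reported here by name. No test was made, since the choice of genes used the peaks. Joins were tested on simulated data. Intervals cover counting error only. Python 3.11.15, numpy 2.4.6, pandas 2.3.3, scipy 1.17.1 and matplotlib 3.10.9 were used.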

Additional observations from a re-analysis of the deposited data

How the results depend on the processing

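The counts depended mainly on the score at which peaks were kept. At scores of at least 15, peaks in the 8 genes numbered 6 and their sites 6, against 22 and 17, with 5 sites on PIPE-CLIP alone, 0 in at least 2 lists and 1 gene with a peak outside PIPE-CLIP. Protein-coding genes with a peak then numbered 911, against 2140. At scores of at least 20, 1 peak at 1 site was left, the Pyicoclip peak of Lef1, with 0 sites on PIPE-CLIP alone, 0 in at least 2 lists, 1 gene with a peak outside PIPE-CLIP, and 413 protein-coding genes. Fewer peaks enter at these settings by construction. The median score was 12 in both Piranha and Pyicoclip, 14 in PIPE-CLIP and 27 in CIMS, so the same score need not rank alike in each list. Without PIPE-CLIP, 1003 protein-coding genes held a peak. Of 44 alternative values, 31 stayed within 1.5 times, which covers assignment by any or all of the peak and joins by strand, by gaps of at most 50 nt or by 50% of the shorter peak. Removal of peaks opposite to the strand in the promoter table could change nothing, since the 8 peaks of the 3 genes in that table were on the gene strand. With the known direction of the other 5 genes, an alternative chosen after seeing the data, the plus-strand Ncam1 site was removed, which left 20 peaks at 16 sites, 4 of them in at least 2 lists. Joining across gaps of at most 150 nt, chosen after seeing the data, gave 15 sites, 10 of them on PIPE-CLIP alone, as the 3 minus-strand sites of Ncam1 became 1. No paired analysis was possible because the libraries form 1 group and the lists hold no value per library, which also means that no library could be left out. Depth limits what can be said of genes without a peak.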
